A study of Homo sapiens with 18 samples.

Results

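The receptor tyrosine kinases AXL, TYRO3, MERTK, MET, EGFR, ERBB2, ERBB3, IGF1R and FGFR1 and the ligand GAS6 were followed in TPC1, a human papillary thyroid carcinoma (PTC) cell line, after loss of DICER1. These 10 genes were chosen by name among the 58302 genes of the table. The line TPC1 carries a wild-type Dicer1 genotype in the labels, and D11 is its Dicer1 (+/-) derivative, a single monoclonal population made with CRISPR-Cas9, so the clone and the genotype cannot be told apart. Each line was left non-transfected (NT), given 5 nM of a negative control siRNA (NC) or given 5 nM of an siRNA against Dicer1 (siDicer) by transfection, and RNA was collected on day 4. Poly-A selected RNA was sequenced in 18 libraries, 3 for each of the 6 groups, and NT and NC together form the control group of a line. The labels do not say that the 3 replicates of a group were separate cultures, so p-values measure only the spread between these libraries, which may be technical. Fewer cells of a kind and less RNA per cell cannot be told apart in such bulk samples.

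For 12 of the 18 libraries the title and the description of the sample named different groups, and the groups used here were those of the descriptions. Depth was 11.3 to 23.2 M reads per library (M for the SI prefix mega), with a median of 15.9 M, and values are given after scaling each library to 20 M reads. On this scale 1 read was worth 0.861 to 1.77 and the detection floor of 3 reads was 2.58 to 5.32, which covers counting error only. PAX8, a transcription factor of thyroid follicular cells, lay between 7361 and 14886 and thyroglobulin (TG) between 32 and 124, while TSHR and SLC5A5 lay between 0 and 2 and NKX2-1 was at 0 in all 18 libraries. The keratins KRT8 (5715 to 13581) and KRT18 (2908 to 6564) were abundant, while KRT7 lay between 150 and 455 and KRT19 between 2 and 8. EPCAM lay between 0 and 6 and CDH1 between 0 and 8. PAX8 and TG were thus detected in these cells of labelled thyroid origin, while TSHR, SLC5A5 and NKX2-1 were at or near 0.

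Receptor tyrosine kinases sit in the cell membrane, bind a ligand outside the cell, pair up and phosphorylate each other, which starts the RAS-MAPK and PI3K-AKT signalling cascades. AXL, TYRO3 and MERTK form the TAM family, whose ligands are GAS6 and protein S. MET is the receptor of hepatocyte growth factor, EGFR, ERBB2 and ERBB3 form the epidermal growth factor receptor family, IGF1R binds insulin-like growth factors and FGFR1 binds fibroblast growth factors. Papillary thyroid carcinomas are known for activating lesions of the same cascades, and TPC1 carries a fusion of the receptor kinase RET. DICER1 cuts precursor hairpins into mature miRNAs, which pair through their seed (bases 2 to 8) with matching sites in the 3′ UTR of messenger RNAs and lower their level or translation.

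Because DICER1 acts through miRNAs, the 3′ UTRs of the members were searched for matches to 9 miRNA seeds. These were the seeds of miR-34a-5p, miR-199a-5p, let-7a-5p, miR-7-5p, miR-16-5p, miR-21-5p, miR-125b-5p, miR-146b-5p and miR-221-3p. Only 3 of these miRNAs are shown, with some of their matches in AXL, MET, EGFR or IGF1R, as examples of the letters searched. Matches of EGFR to miR-16, miR-146b and miR-221 and of IGF1R to miR-7, miR-16 and miR-125b are not shown. No miRNA was measured here, and a match is a description of letters, not evidence of binding. The mature sequences, from RefSeq (GRCh38.p14), are written 5′ to 3′ with the seed in capitals.
hsa-miR-34a-5p: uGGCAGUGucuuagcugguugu
hsa-miR-7-5p: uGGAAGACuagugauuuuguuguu
hsa-let-7a-5p: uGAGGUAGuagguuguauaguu
The 3 seeds differ from each other, so these miRNAs belong to different seed families.

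The 3′ UTR of AXL (1862 bases) held 1 match to the miR-34a seed and 1 to the miR-7 seed, and that of MET (2253 bases) held 2 matches to miR-34a. EGFR (6011 bases) held 3 matches to miR-7, and IGF1R (7088 bases) held 2 to let-7a. In the following stretches of 28 bases of the plus strand of GRCh38, taken from the GENCODE 44 transcripts, the 7 bases opposite the seed are in capitals.
AXL miR-34a, chr19:41259934-41259961: ggatccaagctaagCACTGCCactgggg
AXL miR-7, chr19:41260002-41260029: ccacttgcagccctGTCTTCCtacctat
MET miR-34a, chr7:116796161-116796188: tccaatggttttttCACTGCCtgacctt
MET miR-34a, chr7:116798275-116798302: aattagatacttgtCACTGCCtatacct
EGFR miR-7, chr7:55206060-55206087: agcacaagccacaaGTCTTCCagaggat
EGFR miR-7, chr7:55206343-55206370: agactgacttgtttGTCTTCCattccat
EGFR miR-7, chr7:55208338-55208365: ctccatccctgaagGTCTTCCtgattga
IGF1R let-7a, chr15:98960047-98960074: ccccaaacatttatCTACCTCactctta
IGF1R let-7a, chr15:98964089-98964116: ttgccagagtttgtCTACCTCtgggtat
Among 3′ UTRs of 0.8 to 1.25 times the length, 20.8% of 2782 held the miR-34a match and 12.9% held the miR-7 match found in AXL. The corresponding share was 21.8% of 2669 for miR-34a in MET, 33.4% of 1003 for miR-7 in EGFR and 33.8% of 695 for let-7a in IGF1R. IGF1R also held 4 matches to the seed of miR-16, which 58.6% of its 695 UTRs of like length held, and FGFR1 held 3 (32.4% of 2652). Of the IGF1R matches to miR-16, 2 overlap, starting at bases 3148 and 3151 of the 3′ UTR. Over all 9 seeds, with overlapping matches each counted, EGFR and IGF1R held 8 matches each, FGFR1 held 5, AXL, MET, TYRO3 and ERBB3 held 2 each, ERBB2 and MERTK held 1 each and GAS6, whose 3′ UTR has 315 bases, held 0. These totals are not scaled for length, and IGF1R and EGFR have the longest 3′ UTRs of the members. TYRO3 held its 2 matches in 5313 bases and FGFR1 its 5 in 2485. Among the 1003 UTRs of like length to EGFR, single seeds were matched in 25.7% (miR-221) to 54.1% (miR-16). A relation of the totals to the changes was not tested.

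The first RefSeq promoter window listed for each of AXL, EGFR and IGF1R, 300 bases of the plus strand of GRCh38.p14, is shown because EGFR and IGF1R moved together across libraries and AXL moved the other way (values below). The GC box letters GGGCGG or CCGCCC are in capitals.
AXL, chr19:41218973-41219272: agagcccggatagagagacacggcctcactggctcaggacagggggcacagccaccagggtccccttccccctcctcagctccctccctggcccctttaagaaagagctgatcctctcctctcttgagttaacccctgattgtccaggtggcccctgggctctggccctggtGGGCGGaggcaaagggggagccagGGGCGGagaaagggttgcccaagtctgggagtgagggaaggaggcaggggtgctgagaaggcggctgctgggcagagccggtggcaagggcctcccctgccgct
EGFR, chr7:55018767-55019066: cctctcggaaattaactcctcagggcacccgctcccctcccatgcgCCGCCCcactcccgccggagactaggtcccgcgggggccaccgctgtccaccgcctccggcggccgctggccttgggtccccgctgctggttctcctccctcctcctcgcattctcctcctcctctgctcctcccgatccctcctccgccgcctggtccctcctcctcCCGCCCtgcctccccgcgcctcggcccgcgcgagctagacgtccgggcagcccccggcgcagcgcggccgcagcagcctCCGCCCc
IGF1R, chr15:98648289-98648588: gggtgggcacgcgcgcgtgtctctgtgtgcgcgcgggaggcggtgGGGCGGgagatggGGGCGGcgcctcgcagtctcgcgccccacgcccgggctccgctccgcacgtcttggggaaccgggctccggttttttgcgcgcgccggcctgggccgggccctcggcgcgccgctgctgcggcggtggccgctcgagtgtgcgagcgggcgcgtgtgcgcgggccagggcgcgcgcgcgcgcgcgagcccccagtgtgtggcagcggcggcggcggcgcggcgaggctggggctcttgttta
AXL held 2 GC boxes at a GC content of 66.0%, EGFR held 3 at 75.3% and IGF1R held 2 at 79.7%. Of 35116 promoter windows, 45.0% held a GC box on either strand, and the median GC content was 58.7%. These 3 windows held no match to the AP-1 letters TGANTCA, the TATA box TATAAA or the E-box CACGTG on either strand, which 7.71%, 11.5% and 7.26% of all windows held. RefSeq lists a further window for EGFR (chr7:55109589-55109888), with a GC content of 42.0%, 0 GC boxes, 2 AP-1 matches and 2 TATA boxes, and one for AXL (chr19:41226505-41226804), with a GC content of 53.7% and 0 matches to any of these motifs. In the first windows of other members, GC boxes numbered 5 in MERTK, 3 each in TYRO3, GAS6 and MET and 0 in ERBB2. TYRO3 and ERBB2 held 1 AP-1 match each there and MET held 1 E-box. No window was listed for ERBB3 or FGFR1. GC boxes were thus not particular to the members shown, and a relation of these letters to the changes was not tested.

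The level of DICER1 was read first as a check of the labels. In TPC1 it was 1582, 1510 and 1397 (NT), 2492, 1901 and 2366 (NC) and 255, 395 and 246 (siDicer). In D11 it was 655, 1157 and 923 (NT), 1536, 1433 and 1407 (NC) and 297, 451 and 277 (siDicer). Every siDicer library of a line lay below every control library of that line. The siDicer libraries kept on average 15.9% of the DICER1 level of control libraries in TPC1 and 28.8% in D11, and the log2 change was -2.64 (SE 0.21, adjusted p = 0.000337) and -1.77 (SE 0.25, adjusted p = 0.000649) by limma with Benjamini-Hochberg adjustment, which stands behind every adjusted p below. A gene was called when the adjusted p was under 0.05 and the fold change of at least 1.5 was reached on the log2(value + 1) scale. Among the control libraries DICER1 was lower in D11 than in TPC1 by a log2 change of -0.68 (SE 0.12, adjusted p = 0.00561), a call that was lost in NT alone (adjusted p = 0.406), in NC alone (adjusted p = 0.107) and, under the fold minimum, without D11 NT replicate 1 (-0.58). In both lines siDicer replicate 2 kept the most DICER1.

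Per kilobase of merged exons, the order of levels in control cells was led by AXL and MET in both lines. In TPC1, AXL had 1851 ± 368 per kb (SD, n = 6) and MET 1412 ± 158, and the ranges of the pair overlapped. In D11 the values were 2179 ± 254 for AXL and 1235 ± 183 for MET, with no overlap. EGFR was next with 476 ± 89.7 per kb in TPC1 and 505 ± 103 in D11, apart from MET above and GAS6 below. GAS6 (193 and 203 per kb), FGFR1 (158 and 148) and ERBB2 (131 and 132) followed, and GAS6 overlapped FGFR1 and FGFR1 overlapped ERBB2 in both lines. TYRO3 (74.3 and 72.9 per kb), MERTK (55.2 and 47.6) and IGF1R (48.2 and 45.6) formed a lower run in which neighbours also overlapped. ERBB3 was last with 1.78 per kb in TPC1 and 0.911 in D11; ERBB3 is the usual signalling partner of ERBB2. With the length of the canonical transcript in place of the merged exons, FGFR1 passed GAS6 in TPC1, IGF1R passed MERTK in D11, and MET and EGFR overlapped in D11.

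**Figure D1:**
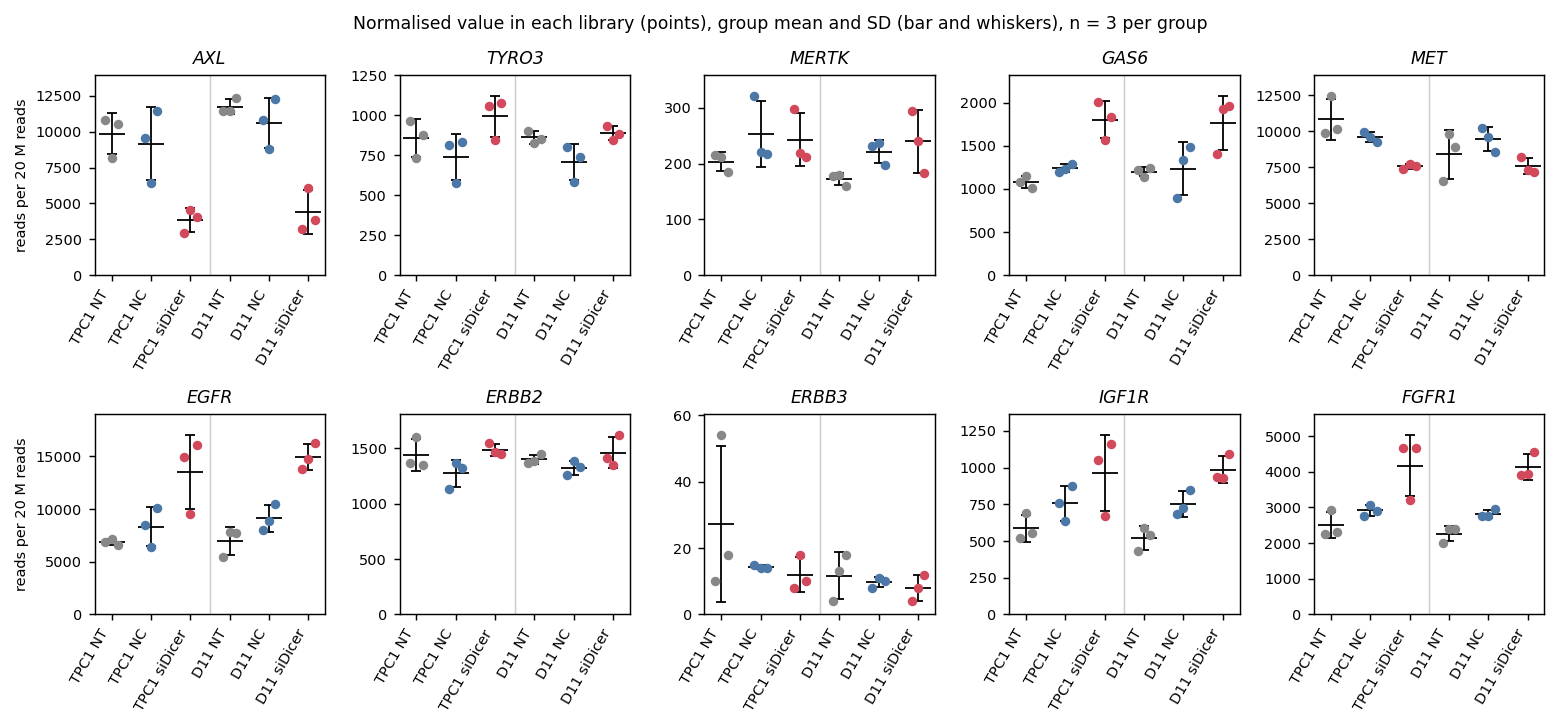
Normalised value (reads scaled to 20 M per library) of each of the 10 members in each of the 18 libraries, with 1 point per library and the mean and SD of each group of 3. AXL drops to 2906 to 6106 in the 6 siDicer libraries, EGFR lies at 9518 to 16259 there, and for TYRO3, MERTK and ERBB2 the siDicer libraries overlap the range of the 6 control libraries of their line.

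AXL (ENSG00000167601, GRCh38 chr19:41219223-41261766, plus strand) fell the furthest of the members in both lines. In TPC1 the AXL values were 10814, 8204 and 10535 (NT), 9539, 6432 and 11481 (NC) and 2906, 4573 and 4080 (siDicer). In D11 they were 11448, 11457 and 12335 (NT), 10791, 8801 and 12289 (NC) and 3223, 6106 and 3857 (siDicer). All siDicer libraries lay below all control libraries of their line, and siDicer replicate 2, which kept the most DICER1, also kept the most AXL in each line. Between the remaining siDicer libraries of each line, however, the library with less DICER1 had more AXL. Control cells of D11 also had less DICER1 than those of TPC1 (means of 1185 and 1875) and a higher mean of AXL. A relation of the DICER1 level to the AXL level was not tested. The mean went from 9501 ± 1888 (SD, n = 6) to 3853 ± 856 (n = 3) in TPC1, 40.6% of control, with a log2 change of -1.30 (SE 0.19, adjusted p = 0.00255). In D11 it went from 11187 ± 1306 (n = 6) to 4395 ± 1515 (n = 3), 39.3% of control, with a log2 change of -1.39 (SE 0.17, adjusted p = 0.000282). Of all genes tested, 0.752% in TPC1 and 0.858% in D11 had a more negative change. Against NC alone the change of AXL was -1.23 (adjusted p = 0.0220) and -1.31 (adjusted p = 0.00382).

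TYRO3 (ENSG00000092445, chr15:41557675-41583589, plus strand), the TAM receptor best known from the nervous system, was not called. Its values in TPC1 were 965, 734 and 878 (NT), 816, 575 and 834 (NC) and 1056, 848 and 1078 (siDicer), and in D11 they were 905, 830 and 852 (NT), 801, 584 and 740 (NC) and 934, 845 and 885 (siDicer). In both lines the siDicer libraries overlapped the 6 control libraries but lay above the 3 NC libraries, and the log2 change was 0.32 (95% interval -0.01 to 0.66) in TPC1 and 0.19 in D11. MERTK (ENSG00000153208, chr2:111898607-112029561, plus strand), which macrophages use to take up dying cells, was at 215, 211 and 184 (NT), 321, 220 and 217 (NC) and 298, 219 and 212 (siDicer) in TPC1. In D11 MERTK was at 178, 179 and 160 (NT), 231, 236 and 197 (NC) and 295, 241 and 183 (siDicer). For MERTK siDicer and control libraries overlapped too, with a log2 change of 0.10 (95% interval -0.29 to 0.48) and 0.27 (-0.10 to 0.64). AXL made up 93.7% of the per-kb sum of the TAM receptors in TPC1 NT, 93.01% in TPC1 NC and 82.7% ± 5.24 (SD, n = 3) in TPC1 siDicer. In D11 the AXL share was 94.9%, 94.5% and 85.1% ± 4.92, so AXL remained the main TAM transcript after siDicer.

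GAS6 (ENSG00000183087, chr13:113820549-113864076, minus strand), the vitamin K-dependent ligand of the TAM receptors, was called higher in TPC1 and was not called in D11, while its main receptor AXL was called lower in both lines. The log2 change of GAS6 differed between the lines by -0.10 (D11 minus TPC1), a difference that was not called. In TPC1 its values were 1082, 1153 and 1014 (NT), 1197, 1231 and 1294 (NC) and 2004, 1573 and 1830 (siDicer), without overlap. The GAS6 mean went from 1162 ± 102 (SD, n = 6) to 1802 ± 217 (n = 3), a log2 change of 0.63 (SE 0.10, adjusted p = 0.00448). In D11 the values were 1218, 1139 and 1248 (NT), 898, 1331 and 1483 (NC) and 1402, 1924 and 1966 (siDicer), and siDicer replicate 1 lay within the control range. The D11 change of GAS6 was 0.53 (SE 0.15, adjusted p = 0.0258), under the fold minimum, and was called without NC replicate 3 (0.59), without siDicer replicate 1 (0.69) and with no fold minimum. Against NC alone GAS6 was not called in either line (log2 change 0.53 in both), in TPC1 because of the fold minimum (adjusted p = 0.0229) and in D11 with an adjusted p of 0.0879. Without TPC1 siDicer replicate 1 its change in TPC1 was 0.55, also under that minimum. The other TAM ligand, protein S (PROS1), was not called, with a mean of 428 in control and 329 in siDicer of TPC1.

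MET (ENSG00000105976, chr7:116672196-116798377, plus strand) was not called in either line, although its values after siDicer were low in TPC1. There it was at 9857, 12439 and 10139 (NT), 9912, 9628 and 9222 (NC) and 7400, 7748 and 7569 (siDicer), and all 3 siDicer libraries lay below all control libraries. The TPC1 mean of MET after siDicer was 74.2% of control, with a log2 change of -0.42 (SE 0.09, adjusted p = 0.0141) that stayed under the fold minimum. In D11 it was at 6513, 9778 and 8897 (NT), 10212, 9569 and 8576 (NC) and 8222, 7328 and 7185 (siDicer). There NT replicate 1 was the lowest of the 9 libraries and the groups overlapped, with a log2 change of -0.22 (95% interval -0.50 to 0.05, adjusted p = 0.231). The change between the lines differed by 0.20 (95% interval -0.14 to 0.54), an interval that includes 0. Against NC alone the log2 change of MET was -0.34 (adjusted p = 0.0230) in TPC1 and -0.32 (adjusted p = 0.0398) in D11, both under the fold minimum, and in D11 every siDicer library then lay below every NC library.

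EGFR (ENSG00000146648, chr7:55019017-55211628, plus strand) rose in both lines. In TPC1 its values were 6855, 7192 and 6564 (NT), 8534, 6358 and 10054 (NC) and 14942, 9518 and 16047 (siDicer). In siDicer replicate 2 of TPC1 EGFR lay within the control range, and the other two siDicer libraries lay above it. In D11 its values were 5470, 7817 and 7699 (NT), 7970, 8905 and 10454 (NC) and 13788, 14740 and 16259 (siDicer), all above the controls. The mean went from 7593 ± 1430 (SD, n = 6) to 13502 ± 3494 (n = 3) in TPC1, 178% of control, and from 8052.5 ± 1634 to 14929 ± 1246 in D11, 185% of control. The log2 change was 0.81 (SE 0.18, adjusted p = 0.0154) and 0.91 (SE 0.16, adjusted p = 0.00186), and 3.27% of genes tested in TPC1 and 2.99% in D11 had a larger rise. The call of EGFR in TPC1 was lost against NC alone (0.69, adjusted p = 0.0955), without siDicer replicate 1 (0.72) and without siDicer replicate 3 (0.67). In D11 the call held under all 20 alternatives.

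ERBB2 (ENSG00000141736, chr17:39687914-39730426, plus strand), the family member without a ligand of its own, was not called. Its values in TPC1 were 1368, 1604 and 1347 (NT), 1135, 1364 and 1322 (NC) and 1547, 1463 and 1444 (siDicer), and in D11 they were 1369, 1385 and 1448 (NT), 1258, 1383 and 1329 (NC) and 1415, 1349 and 1617 (siDicer). The siDicer libraries of ERBB2 overlapped the control libraries, although those of TPC1 lay above the 3 NC libraries. The 95% interval of its log2 change was -0.08 to 0.36 in TPC1 and -0.10 to 0.29 in D11. ERBB3 (ENSG00000065361, chr12:56076799-56103505, plus strand), a neuregulin receptor with little kinase activity, was at 10, 54 and 18 (NT), 15, 14 and 14 (NC) and 8, 18 and 10 (siDicer) in TPC1, and at 4, 13 and 18, then 8, 11 and 10, then 4, 8 and 12 in the same groups of D11. At this depth no difference in ERBB3 was detectable, with wide intervals of its log2 change (-1.61 to 0.43 and -1.34 to 0.60). The remaining family member ERBB4 was at 0 in every library.

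IGF1R (ENSG00000140443, chr15:98648539-98964530, plus strand) was called higher in D11 only, and the difference between the lines did not pass its own test. In TPC1 it was at 518, 690 and 553 (NT), 761, 635 and 872 (NC) and 1050, 671 and 1164 (siDicer), where siDicer replicate 2 again lay within the control range. In D11 it was at 430, 586 and 541 (NT), 684, 722 and 849 (NC) and 936, 927 and 1092 (siDicer), all above the controls. IGF1R was called in D11 (log2 change 0.66, SE 0.18, adjusted p = 0.0189) and not in TPC1 (0.50, SE 0.20, adjusted p = 0.112), while the difference between the lines was 0.16 (95% interval -0.43 to 0.75). Without TPC1 siDicer replicate 2 the TPC1 change was 0.74 and passed. The D11 call was lost against NC alone (0.39, under the fold minimum at an adjusted p of 0.0451), without NT replicate 1 (0.56), without siDicer replicate 1 (0.70) and without siDicer replicate 3 (0.58).

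FGFR1 (ENSG00000077782, chr8:38400215-38468834, minus strand) rose in both lines. In TPC1 it was at 2267, 2935 and 2318 (NT), 2767, 3069 and 2910 (NC) and 4660, 3199 and 4668 (siDicer), and in D11 it was at 2013, 2395 and 2398 (NT), 2754, 2756 and 2951 (NC) and 3908, 3929 and 4545 (siDicer). The FGFR1 libraries of siDicer lay above all controls in both lines, although TPC1 siDicer replicate 2 was close to the highest control library (3199 and 3069). The siDicer mean was 154% of control in TPC1 (log2 change 0.61, SE 0.14, adjusted p = 0.0183) and 162% in D11 (0.71, SE 0.12, adjusted p = 0.00174). Against NC alone FGFR1 was not called in TPC1 (0.50, adjusted p = 0.0715) and was under the fold minimum in D11 (0.55, adjusted p = 0.00409). The TPC1 call was also lost without NT replicate 1 (0.56) or 3 (0.57) and without siDicer replicate 1 or 3 (0.52 each).

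Of the 10 members, 3 were called higher in TPC1 (GAS6, EGFR and FGFR1) and 3 in D11 (EGFR, IGF1R and FGFR1), while 3.22% of the 18475 genes tested in TPC1 and 5.26% of the 18413 tested in D11 were called higher. Only AXL among the members was called lower in each line, beside 4.16% and 6.75% of all genes. Every siDicer library lay above every control library for 2 members in TPC1 (GAS6 and FGFR1) and for 3 in D11 (EGFR, IGF1R and FGFR1), beside 7.62% and 11% of all genes. The siDicer libraries lay below all controls for 2 members in TPC1 (AXL and MET) and for 1 in D11 (AXL), beside 9.91% and 14.1%. Since the members were chosen with earlier results known, these counts describe the members and are not a test of them. All 10 members passed the filter on low values. TPC1 siDicer replicates 1 and 3, which had the highest EGFR, IGF1R and FGFR1 of that line, were the most deeply sequenced libraries (23.2 and 21.3 M reads) and replicate 2 had 16.9 M, a relation whose part in the result was not tested.

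**Figure D2:**
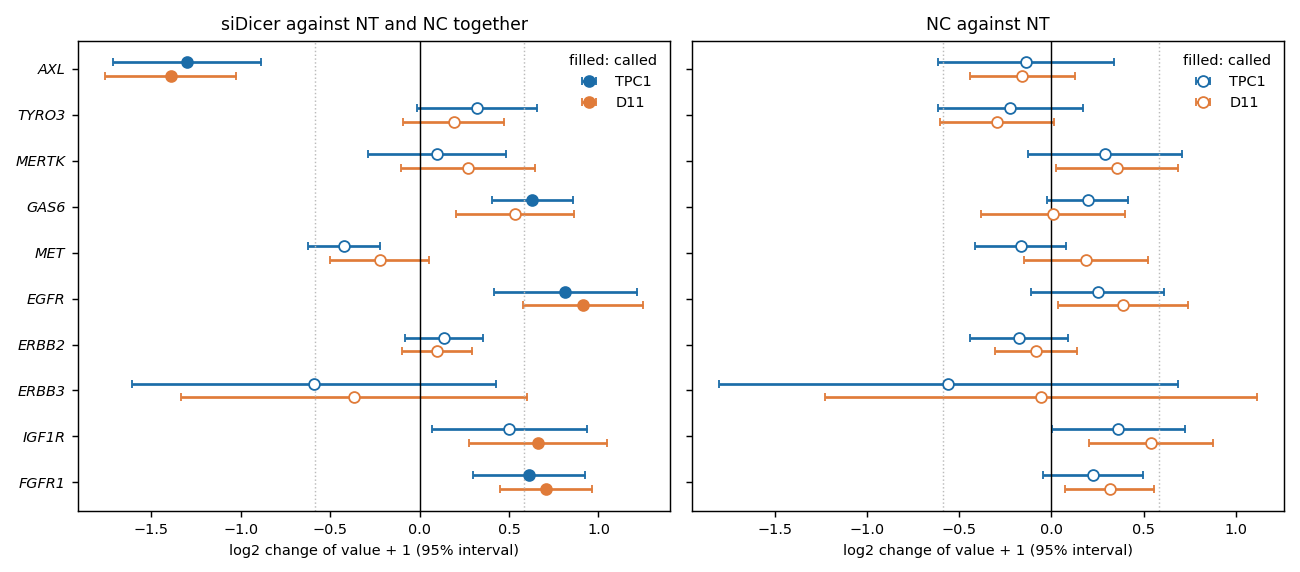
Log2 change of value + 1 of each member with its 95% interval from limma, siDicer against control on the left and NC against NT on the right, for TPC1 and D11, with filled symbols for called changes and dotted lines at a fold of 1.5. AXL stands at -1.30 and -1.39 and EGFR at 0.81 and 0.91 on the left, and no member is filled on the right.

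Because AXL fell and EGFR rose, the makeup of the receptor transcripts changed. Summed per kb of merged exons over the 9 receptors, AXL held 43.7% ± 5.54 (SD, n = 6) in TPC1 control cells and 23.2% ± 5.66 (n = 3) after siDicer, and EGFR held 11.3% ± 1.59 and 25.9% ± 5.56. In D11 the AXL share was 49.9% ± 5.15 in control and 24.6% ± 6.71 after siDicer, and the EGFR share 11.5% ± 1.97 and 27.3% ± 2.54. The share of MET was 33.8% ± 4.78 and 32.3% ± 2.497 in TPC1 and 28.3% ± 3.73 and 30.7% ± 4.11 in D11, within the spread. The share of FGFR1 was 3.80% ± 0.772 and 7.43% ± 1.24 in TPC1 and 3.39% ± 0.388 and 7.01% ± 0.801 in D11. With canonical transcript lengths the FGFR1 share was 9.12% and 15.8% in TPC1 and 8.20% and 14.96% in D11. With these lengths the MET share went from 28.6% ± 3.82 to 24.2% ± 2.69 in TPC1, with overlapping ranges, and from 24.02% to 23.02% in D11. The sum itself, with merged exons, was 4305 per kb in NT, 4109 in NC and 3253 in siDicer of TPC1, and 4317, 4416 and 3435 in D11. The ratio of the AXL value to the EGFR value was 1.44 in NT, 1.09 in NC and 0.310 in siDicer of TPC1, and 1.72, 1.17 and 0.295 in D11.

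**Figure D3:**
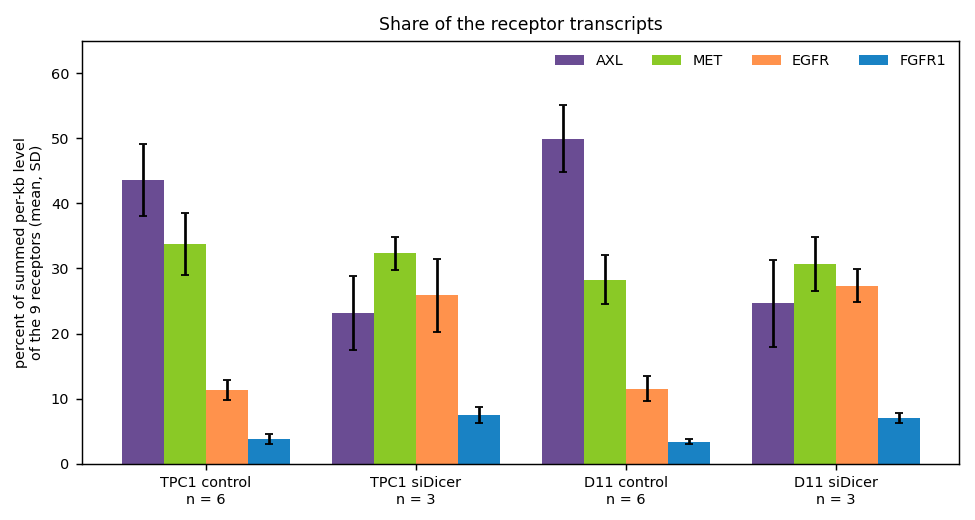
Share in percent of the summed per-kb level of 9 receptors held by AXL, MET, EGFR and FGFR1, as bars of the mean with SD for control (n = 6) and siDicer (n = 3) libraries of each line. AXL goes from 43.7% to 23.2% in TPC1 and from 49.9% to 24.6% in D11, while EGFR goes from 11.3% to 25.9% and from 11.5% to 27.3%.

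The comparison of NC with NT tells how far transfection with the control siRNA moved the members. By limma 0 members were called in either line, beside 0.111% of 18008 genes in TPC1 and 0.35% of 17992 in D11, and voom on recovered reads also called 0 members. With the replicate number as a block, D11 had 195 genes higher and 120 lower in NC, in place of 27 and 36, and again 0 members. At an unadjusted p under 0.05 there was 1 member in TPC1 (IGF1R) and 4 in D11 (EGFR, FGFR1, IGF1R and MERTK), all higher in NC. IGF1R was higher by a log2 change of 0.36 (SE 0.16) in TPC1 and 0.54 (SE 0.15) in D11, and EGFR by 0.25 (SE 0.16) and 0.39 (SE 0.16). For FGFR1 the difference was 0.23 (SE 0.12) and 0.32 (SE 0.11), and for MERTK 0.29 (SE 0.18) and 0.36 (SE 0.15). The means of EGFR, IGF1R and FGFR1 were higher in NC than in NT, without a call, and their siDicer means were 162%, 127% and 143% of the NC mean in TPC1 and 164%, 131% and 146% in D11. DICER1 was also higher in NC than in NT, by 0.58 (SE 0.12, adjusted p = 0.133) and 0.71 (SE 0.18, adjusted p = 0.153). With the replicate number as a block the adjusted p was 0.00721 in TPC1, under the fold minimum, and 0.0460 in D11, where DICER1 was then called.

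Whether the heterozygous clone differed from its parent was asked in the 12 libraries of NT and NC, with a term for transfection. By limma 0 of the 10 members were called, beside 1.02% of 18814 genes, 0 had an unadjusted p under 0.05 and voom on recovered reads called 0. AXL was higher in D11 by 0.25 on the log2 scale (95% interval -0.02 to 0.52) and MET was lower by -0.20 (95% interval -0.43 to 0.03). The response to siDicer was compared between the lines by an interaction over 18 libraries, and 0 members were called by limma or by voom on recovered reads. Of all 19181 genes tested, 0% were called, and 133 had an unadjusted p under 0.05. The difference between the lines, D11 minus TPC1, was -0.09 for AXL (95% interval -0.66 to 0.48) and 0.10 for EGFR (95% interval -0.44 to 0.64), and both intervals include 0.

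Several members share exon bases with a gene on the opposite strand, and the strand setting of the counting was not stated, so the reads of such pairs cannot be told apart. AC011510.1 (ENSG00000269652), a long non-coding RNA sharing 67 exon bases with AXL, was at 5.03% to 6.74% of the AXL value and followed it with r = 0.98 over the 18 libraries. It went from 543 to 226 in TPC1 (log2 change -1.27, adjusted p = 0.00255) and from 627 to 244 in D11 (-1.40, adjusted p = 0.000574). EGFR-AS1, sharing 186 bases, was at 2.54% to 4.42% of EGFR (r = 0.97) and went from 288 to 536 in TPC1 (0.86, adjusted p = 0.0375) and from 282 to 559.7 in D11 (1.04, adjusted p = 0.00913). GAS6-AS1, sharing 421 bases, was at 56.1% to 76.6% of GAS6 (r = 0.94) and went from 739.5 to 1069 in TPC1 (0.54, adjusted p = 0.00784) and from 820.5 to 1105 in D11 (0.42, adjusted p = 0.0508). Other opposite-strand partners that were correlated did not follow their member, with r = -0.70 for LETM2 and FGFR1, 0.25 for MIEN1 and ERBB2 and -0.00051 for PGAP3 and ERBB2. ENSG00000255201, which shares 387 exon bases with FGFR1 on the opposite strand (values of 97 to 262), was not correlated. Nor was ENSG00000257411, which shares 31 exon bases with ERBB3 on the same strand (values of 1533 to 2809). All these correlations share the same siDicer and control libraries and are descriptions. The pseudogene TYRO3P reached at most 0.685% of the TYRO3 value.

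**Figure D4:**
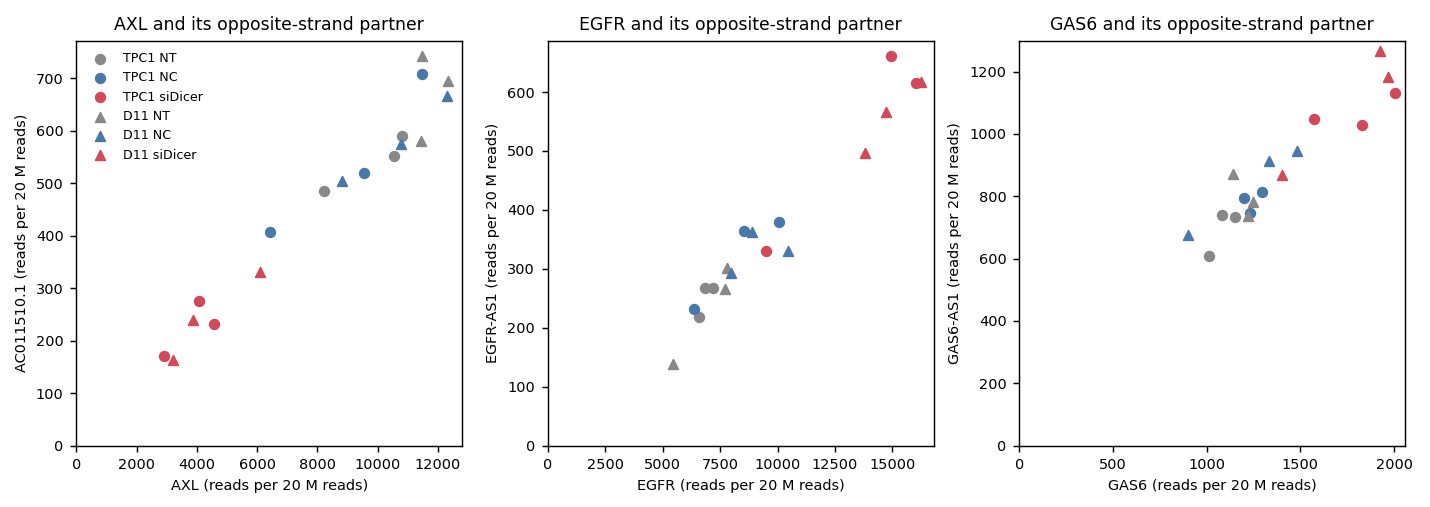
Normalised value of a member on the x axis and of its opposite-strand partner on the y axis, with 1 point for each of the 18 libraries. The partners of AXL (r = 0.98), EGFR (r = 0.97) and GAS6 (r = 0.94) rise with their member, with AC011510.1 at 5.03% to 6.74% of AXL.

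Across the 18 libraries EGFR, IGF1R and FGFR1 moved together, with r = 0.94 for EGFR and IGF1R, 0.92 for EGFR and FGFR1 and 0.93 for IGF1R and FGFR1 on the log2(value + 1) scale. GAS6 followed EGFR (r = 0.85) and FGFR1 (r = 0.83). AXL went the other way, with r = -0.88 against FGFR1, -0.74 against EGFR and -0.74 against GAS6, and had r = 0.49 with MET. All pairs share the same siDicer and control libraries, so the points are not independent. Among 12507 genes with a mean of at least 100, the profile most like that of AXL was its opposite-strand partner AC011510.1 (r = 0.98), followed by PTMA (r = 0.97), which encodes the nuclear protein prothymosin alpha, SF3B3 (r = 0.96), a subunit of the spliceosome, RTN4 (r = 0.95), a shaper of the endoplasmic reticulum, and HNRNPH3 (r = 0.95), a splicing factor. PTMA went from a mean of 13604 to 6252 in TPC1 and from 14645 to 6440 in D11. For MET the most alike were PREPL (r = 0.96), CLASP2 (0.95), which binds microtubules, CEP290 (0.95), a cilium protein, LYSMD3 (0.94) and the SRC family kinase YES1 (0.93).

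The other receptor tyrosine kinases were mostly not called. Of 49 genes, 28 were tested, and 4 were higher and 2 lower in TPC1, beside 3.22% and 4.16% of all genes, with 5 higher and 1 lower in D11, beside 5.26% and 6.75%. Over the alternatives these counts ranged from 1 to 6 higher and 0 to 3 lower in TPC1 and from 3 to 7 higher and 1 to 4 lower in D11. Their median log2 change was 0.07 and 0.0049, beside -0.04 over all genes in each line. EPHB2, an ephrin receptor, rose from 159.8 to 333 in TPC1 (1.07, adjusted p = 0.00335) and from 197 to 356 in D11 (0.86, adjusted p = 0.0195), and EPHA4 rose in D11 from 690.3 to 1173 (0.78, adjusted p = 0.00197). FLT4, the receptor of lymphatic growth factors, fell from 64.3 to 29.7 in TPC1 (-1.11, adjusted p = 0.00836) and from 82.3 to 34.7 in D11 (-1.27, adjusted p = 0.00350). ROR1 and TIE1 were called higher in both lines, ROR1 from 1373 to 2361 in TPC1. EPHB3 fell in TPC1 from 23.5 to 10.7 (-1.08, adjusted p = 0.0140). PDGFRB, a receptor of mesenchymal cells, rose from 27.0 to 111 in TPC1 (1.82, adjusted p = 0.0493) and from 28.7 to 86.7 in D11 (1.60, adjusted p = 0.00355), and its call in TPC1 was lost in 11 of 20 alternatives. Without TPC1 siDicer replicate 1 or 3 the calls of FLT4 (adjusted p = 0.0574 and 0.0615) and EPHB3 (0.0546 and 0.0930) were lost as well. That of EPHB2 in D11 was lost without siDicer replicate 1 (0.113) or 2 (0.0561). Against NC alone the calls of EPHB3 in TPC1 (0.0781) and EPHB2 in D11 (0.116) were lost. Against NT alone that of FLT4 in TPC1 was lost (0.0557). The summed level of 7 fibroblast markers was 193 to 272 in control and 388 to 798 in siDicer of TPC1 and 58 to 133 and 153 to 256 in D11. Among these markers LUM was at 0 to 517, COL1A2 and COL3A1 at 0 to 2 and DCN at 0. The sum holds PDGFRB itself, so its rise in part repeats that of PDGFRB. The libraries come from a cell line and its clone, and whether other cells had a part in the result was not tested. RET, whose fusion TPC1 carries, was at 1102, 1143 and 1092 (NT), 1091, 1126 and 1007 (NC) and 1104, 1226 and 1111 (siDicer) in TPC1, a log2 change of 0.07 (adjusted p = 0.595). In D11 it was at 1081, 1139 and 1130 (NT), 1146, 1058 and 1036 (NC) and 1193, 1184 and 1159 (siDicer), with siDicer above control in all 3 libraries and a log2 change of 0.10 (adjusted p = 0.406), and the gene-level value does not tell the fusion from the intact gene.

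Of 20 ligand genes, 14 were tested, and 1 was called higher and 4 were called lower in TPC1, beside 3.22% and 4.16% of all genes. In D11 1 was called higher and 6 lower, beside 5.26% and 6.75% of all genes. The median log2 change of the ligands was -0.72 in TPC1 and -0.59 in D11, beside -0.04 over all genes in each line. FGF2, the basic fibroblast growth factor that binds FGFR1, fell from 1589.7 ± 211 (SD, n = 6) to 736 ± 93.1 (n = 3) in TPC1 (-1.11, adjusted p = 0.000776) and from 1476 ± 203 to 695 ± 147 in D11 (-1.10, adjusted p = 0.000495). FGF5 fell from 861 to 468 (-0.90, adjusted p = 0.00871) and from 880.0 to 495 (-0.83, adjusted p = 0.00300). FGF1, the acidic fibroblast growth factor, rose from 184.5 to 597 in TPC1 (1.73, adjusted p = 0.00296) and from 297.5 to 715 in D11 (1.24, adjusted p = 0.00239). Of the EGFR ligands, EGF (92.2 to 36.3 in TPC1, 53.3 to 27.3 in D11) and BTC (25.2 to 10.3, 16.3 to 3.67) were called lower in both lines. In TPC1 both calls were close to the threshold, with an adjusted p of 0.0458 for EGF and 0.0469 for BTC. In D11 the adjusted p was 0.0350 for EGF and 0.00487 for BTC. AREG was called lower in D11 (37.3 to 11.7). HBEGF was called lower in D11 from 152.5 to 71.0 (-1.11, adjusted p = 0.00192), with 151 and 85.7 in TPC1 (-0.76, adjusted p = 0.0667). The more abundant TGFA (1486 to 1242 in TPC1, 1755 to 1639 in D11) and EREG (1097 to 698, 929.5 to 719) were not called in either line. BTC was near the detection floor in D11 siDicer. HGF, the ligand of MET, had a mean of 0 in control cells of both lines. The call of FGF5 in TPC1 was lost without siDicer replicate 1 (adjusted p = 0.0541) or 3 (0.0613) and against NT alone (0.0521). That of HBEGF was gained there without NT replicate 2 (0.00795), against NC alone (0.0193) and in a fit of all 18 libraries (0.0142). The number of ligands called lower ranged from 1 to 6 in TPC1 and from 4 to 7 in D11 over the alternatives.

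**Figure D5:**
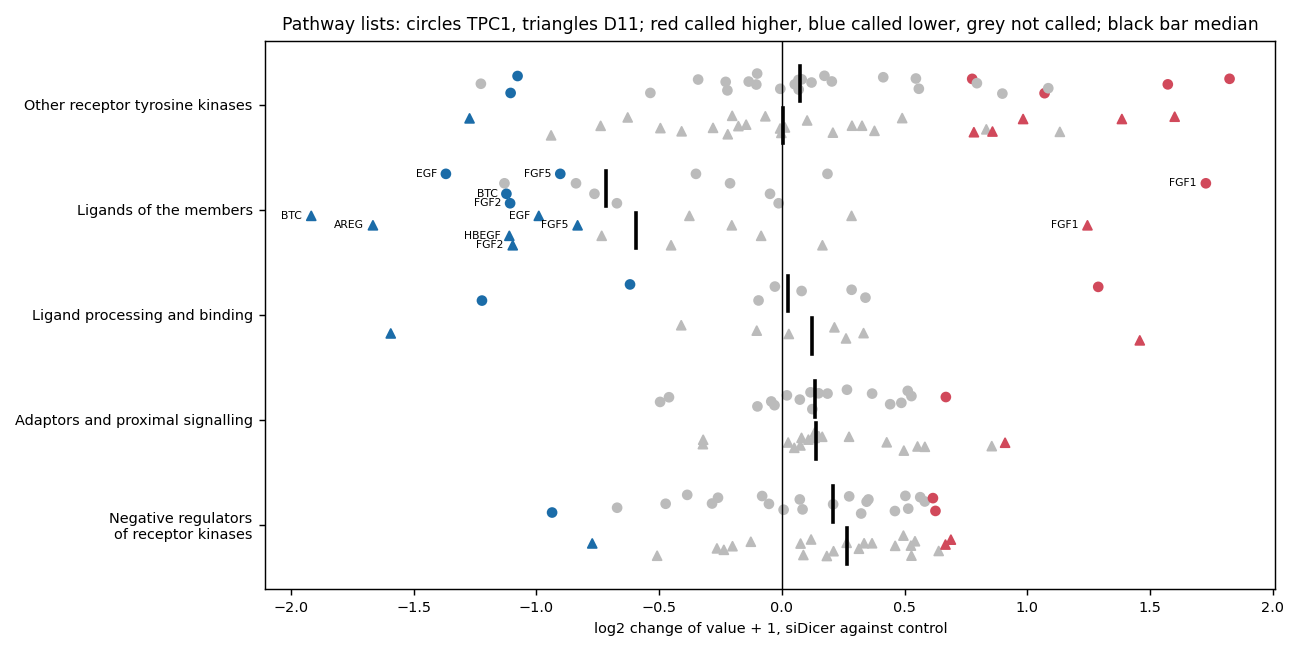
Log2 change of value + 1, siDicer against control, of each gene tested in 5 pathway lists, with circles for TPC1, triangles for D11, red for called higher, blue for called lower, grey for not called and a black bar at the median. The ligands lie mostly left of 0, with medians of -0.72 and -0.59, and FGF1 stands apart on the right.

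Among 15 genes that process or bind ligands, 8 were tested. ADAM17, the sheddase that releases EGFR ligands, fell from 1844 to 1205 in TPC1 (-0.62, adjusted p = 0.00633) and was under the fold minimum in D11 (1584 and 1189, -0.41, adjusted p = 0.0196). IGFBP6, which binds insulin-like growth factors, fell from 761 to 338 in TPC1 (-1.22, adjusted p = 0.0120) and from 867 to 291 in D11 (-1.59, adjusted p = 0.00322). ST14, the matriptase that activates the MET ligand, rose from 19.7 to 47.7 (1.29, adjusted p = 0.0199) and from 16.5 to 47.0 (1.46, adjusted p = 0.00373). These were 1 higher and 2 lower in TPC1, beside 3.22% and 4.16% of all genes. In D11 they were 1 higher and 1 lower, beside 5.26% and 6.75%. The list medians were 0.03 and 0.12, beside -0.04 over all genes in each line. In TPC1 the calls of IGFBP6 (adjusted p = 0.0731 and 0.0705) and ST14 (0.114 and 0.0738) were lost without siDicer replicate 1 or 3. The call of IGFBP6 was also lost against NC alone (0.0789) and that of ST14 against NT alone (0.0792). That of ADAM17 was lost under the fold minimum without NC replicate 2 (log2 change -0.58) or siDicer replicate 1 (-0.53). The same held for ADAM17 against NT alone (-0.56) and with RLE scaling (-0.58).

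Adaptors and proximal signalling genes were mostly not called. Of 19 genes, 18 were tested in TPC1 and 19 in D11, and 1 was called higher and 0 lower in each line. Of all genes, 3.22% were called higher and 4.16% lower in TPC1, and 5.26% and 6.75% in D11. The list medians were 0.14 in both lines, beside -0.04 over all genes. The adaptor gene called higher was PIK3R1, a regulatory subunit of PI3K. It rose from 826 to 1313 in TPC1 (0.67, adjusted p = 0.0109) and from 716 to 1324 in D11 (0.91, adjusted p = 0.00487). PLCG1, a phospholipase that docks on active receptors, had a log2 change of 0.51 (adjusted p = 0.00228) and 0.58 (adjusted p = 0.000960), both under the fold minimum. FRS2, the docking protein of FGF receptors, had 1171 and 830.3 in TPC1 (-0.50, adjusted p = 0.0128), and IRS1, the substrate of IGF1R, had 1554 and 2278 in D11 (0.55, adjusted p = 0.00520), both under that minimum as well. With TMM scaling PLCG1 (0.62) and IRS1 (0.59) passed it in D11. Of 24 negative regulators, 23 were tested, and 2 were higher and 1 lower in each line. The shares of all genes were 3.22% and 4.16% in TPC1 and 5.26% and 6.75% in D11. The medians of the negative regulators were 0.21 and 0.26, beside -0.04 over all genes in each line. Over the alternatives 1 to 5 were higher and 0 to 3 lower in TPC1, and 2 to 7 higher and 1 to 2 lower in D11. SPRY4, a Sprouty inhibitor of receptor signalling, rose from 869 to 1341 in TPC1 (0.63, adjusted p = 0.00138) and from 907 to 1428 in D11 (0.67, adjusted p = 0.00661). SOCS5, which promotes degradation of EGFR, rose from 604 to 919 (0.62, adjusted p = 0.00938) and from 597.5 to 956 (0.69, adjusted p = 0.00278). SPRED1, an inhibitor of the RAS cascade, fell from 999 to 537 (-0.94, adjusted p = 0.00902) and from 911 to 528 (-0.77, adjusted p = 0.00254). In TPC1 the calls of PIK3R1 (adjusted p = 0.0750 and 0.0595), SOCS5 (0.0584 and 0.0629) and SPRED1 (0.0603 and 0.0636) were lost without siDicer replicate 1 or 3. That of SOCS5 was also lost under the fold minimum without NC replicate 2 (log2 change 0.56). In D11 the call of SPRY4 was lost under that minimum without siDicer replicate 1 (0.57) and against NC alone (0.49).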

How the data were processed

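Messenger RNA was sequenced in 18 libraries of TPC1 and D11. According to the methods, libraries were made with a stranded kit, and reads were aligned by the authors to GRCh38 with STAR 2.5.3a, counted per gene of Ensembl 90 with HTSeq 0.9.1 and normalised, and their test with edgeR used the normalised values. Whether HTSeq was run with strand is not given in the sources used here. The table deposited by the authors holds a normalised score, the reads of a gene scaled to 20 M per library and rounded up to a whole number, and no counts. Depth was recovered from the steps between values, and 99.88% to 99.99% of values were whole multiples of 1 read in 16 libraries. In the other two, where 1 read is worth less than 1, the steps are finer than the rounding.

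The score was taken as log2(value + 1) and tested with limma 3.58.1 in R 4.3.3 (lmFit, eBayes with trend) over genes that reached a value of 10 in 3 or more libraries of the fit, with Benjamini-Hochberg adjustment. Adding 1 makes fold changes of low genes too small. Calls needed both an adjusted p under 0.05 and a minimum fold of 1.5. The scripts were tested on simulated data. One gene of the thyroid marker list is not reported here. Groups came from the sample descriptions. The members, gene lists and tests were chosen with earlier results of these data known. Named genes were the 10 members, DICER1, RET, the 3 genes of each list with the smallest adjusted p in each siDicer comparison, and the 5 genes most correlated with AXL and with MET. PROS1, HGF, ERBB4, EGF, BTC, AREG, TGFA, EREG, ROR1 and TIE1 were named after their values were seen. The alternatives were other scalings, filters and pseudocounts, no fold minimum, NC or NT alone as control, voom on recovered reads, a replicate block, leaving out each library, and, chosen after seeing the data, the canonical transcript length.

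The replicate numbers come from the descriptions. Over 19181 genes the deviations of same-numbered libraries correlated with r over 0.1 in 9 of 9 pairs in D11 (0.106 to 0.473) and in 7 of 9 in TPC1 (0.0861 to 0.509), and pairing by number was therefore accepted for D11 only. The main fits of both lines had no term for the replicate number, so their SEs and adjusted p-values ignore this pairing. The replicate block was run only as an alternative.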

Additional observations from a re-analysis of the deposited data

Results flagged for a closer look

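Of 64 control groups of 6 libraries (32 genes in each line), 6 held a library far from the others by a test of the gap, a test that chance alone passes in about 1 of 20 groups. Among the members, MERTK was at 321 in TPC1 NC 1 beside 184 to 220 in the other control libraries, MET was at 12439 in TPC1 NT 2 beside 9222 to 10139, and ERBB3 was at 54 in TPC1 NT 2 beside 10 to 18. In the pathway lists, ADAM17 was at 1265 in D11 NT 1 beside 1583 to 1743, PLCG1 was at 2437 in D11 NT 1 beside 2850 to 3089, and PIK3R1 was at 1077 in D11 NC 1 beside 560 to 730.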

How the results depend on the processing

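Of 1542 single-gene values under alternatives, 1437 kept their direction and their side of the threshold, 60 lost and 37 gained the threshold, and 8 changed sign. AXL was called lower under all 20 alternatives in each line (log2 change -1.44 to -1.11 in TPC1 and -1.66 to -1.20 in D11), and EGFR was called higher under all 20 in D11 (0.72 to 1.11). The number of members called higher, 3 in each line, fell to 0 in TPC1 and 1 in D11 with NC alone as control, and ranged from 0 to 4 in TPC1 and from 2 to 4 in D11 when each library was left out. With no fold minimum, 2 members were called lower in TPC1. The values that changed sign were those of MERTK in TPC1 (-0.049 with NC alone, -0.059 without siDicer 1, range -0.059 to 0.20 over libraries left out), of ERBB3 in D11 (0.0033 without siDicer 1, range -0.69 to 0.0033), of the difference between the lines for AXL (0.016 without TPC1 NC 2, 0.045 without TPC1 siDicer 2, 0.11 without D11 siDicer 1, range -0.36 to 0.11) and of that for EGFR (-0.13 without TPC1 siDicer 2, -0.00635 without D11 NT 1, range -0.13 to 0.24); the cause was not tested. With the canonical transcript length, values per kb in TPC1 and D11 became 99.6 and 97.8 for TYRO3, 463 and 486 for GAS6, 767 and 813 for EGFR, 298 and 299 for ERBB2, 3.71 and 1.90 for ERBB3 and 476 and 447 for FGFR1, since that length is shorter.

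With the replicate number as a block, AXL had a log2 change of -1.30 (adjusted p = 0.00183) in TPC1 and -1.39 (adjusted p = 0.000503) in D11 by limma, and no call of a member changed. Over genes with a mean of at least 100 the check of pairing gave 9 of 9 pairs in TPC1 and 8 of 9 in D11, so its outcome depends on the genes used. The block moved the genes called in NC against NT of TPC1 from 6 higher and 14 lower to 300 and 265, and in D11 against TPC1 from 27 and 164 to 67 and 318. Over all genes of TPC1, siDicer calls went from 594 higher and 769 lower to 159 and 287 without siDicer 1, 168 and 259 without siDicer 3 and 844 and 1250 without siDicer 2; without D11 siDicer 3 those of D11 went from 969 and 1243 to 592 and 782. Depth limits ERBB3, whose levels lie near the floor of 3 reads.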

Other observations

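Among the receptor kinases outside the members, EPHA2 and PTK7 were abundant, and both were chosen after their values were seen. EPHA2 had a mean of 5079 in control and 5019 in siDicer of TPC1 and 5022 and 4973 in D11, and PTK7 had 2196 and 2295 in TPC1 and 2182 and 2203 in D11. Neither was called. CBL, the ubiquitin ligase that sends EGFR and MET to degradation, had 1602 in control and 1229 in siDicer of TPC1 (log2 change -0.39, adjusted p = 0.0208 by limma, under the fold minimum) and 1342 and 1093 in D11 (-0.26, adjusted p = 0.385).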
